A study of Mus musculus with 2 samples.

Results

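Barcodes taken as mature myelinating oligodendrocytes were 144 of the 17653 barcodes that passed the filters in 2 single-cell RNA libraries of mouse cerebral cortex, 90 of 9540 in the control library and 54 of 8113 in the library of cerebral white matter injury (WMI). A barcode, which stands for 1 captured cell or nucleus, was kept with at least 1000 unique molecular identifiers (UMIs, counted RNA molecules), at least 500 genes and at most 10% mitochondrial UMIs. It was a member when at least 4 of 8 genes (Mog, Mobp, Mag, Aspa, Mal, Cldn14, Sec14l5 and Opalin) had a UMI and the neuronal genes Slc17a7, Gad1 and Gad2 together had at most 2. Per the labels, both libraries came from C57BL/6 mice 2 weeks old. In the WMI group the right common carotid artery was tied at postnatal day 7 with 1 h of hypoxia, the cortex on that side was taken at postnatal day 14, and the control was cortex of the same side from control mice. The labels speak of nuclei, while the study's methods give a younger age at surgery, a longer hypoxia and cells freed with trypsin. Each group was 1 library, while the study describes several replicates per group; the relation of those to these libraries was not given in the sources used here. No test between conditions was possible, so the 95% intervals below cover counting error only and not the spread between cells or mice.

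Oligodendrocytes wrap axons of the brain in myelin, a stack of membrane rich in cholesterol and galactolipids that speeds conduction and feeds the axon. They arise from precursors that carry PDGF receptor alpha, pass through a short premyelinating stage marked by genes such as Enpp6, Tns3, Itpr2 and Tcf7l2, and then switch on the myelin genes. In the mouse cortex this switch takes place in the first weeks after birth, so that all stages are present together in a young animal.

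The label held in part for genes that the rule did not use, which are given as a description because members were chosen by expression. Mbp, a main protein of compact myelin, had a UMI in 100% of members of both libraries. It stood at 6446 counts per 1000000 UMIs (CPM) in control members and 6663 in WMI members, against 1951 and 1599 in premyelinating barcodes, 95.5 and 127 in precursor barcodes and 120 and 143 in all other barcodes. Pdgfra, the precursor receptor, was at 13.4 and 12.6 CPM in members and at 270 and 215 in precursor barcodes. Ermn, a cytoskeletal protein of mature myelin, was at 71.0 and 54.5 CPM in members and at 0 and 0.464 in premyelinating barcodes. These pooled levels cover unlike members. The 26 of 54 WMI members with only 4 or 5 rule genes had premyelinating-stage genes at 13209 CPM in sum, above the 11514 of the WMI premyelinating class, which goes against the label. The same 26 had the other myelin protein genes at 12566 CPM, against 4136 in that class. In control, 20 of 90 members had 4 or 5 rule genes, with sums of 10471 and 11407 CPM against 12748 and 4648. The comparison classes were other barcodes with a UMI of Sox10, Olig1 or Olig2 and at least 4 of 8 premyelinating or 8 precursor genes. They held 101 and 334 premyelinating barcodes and 365 and 535 precursor barcodes in control and WMI. The premyelinating genes were Enpp6, Bmp4, Gpr17, Neu4, Tns3, Itpr2, Bcas1 and Tcf7l2. The precursor genes were Pdgfra, Cspg4, Vcan, Lhfpl3, C1ql1, Megf11, Xylt1 and Pcdh15. Levels of these genes, and of lists that hold them, in the class they chose follow in part from that choice. This holds for Pdgfra above and for the premyelinating-stage list throughout. Markers of Schwann cells, which make myelin in peripheral nerve, gave 4 UMIs in control members and 1 in WMI members, all from Ncmap, and Prx, Egr2, Pmp2 and Scn7a were at 0.

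The 10 leading genes outside the rule were far higher in members than in all other barcodes of both libraries. That pool, called elsewhere here, joins all passing barcodes that were not members, premyelinating and precursor barcodes among them. Most of it lay outside the lineage, so these ratios do not compare members with the nearest stage alone. Among them Rnf220, a ubiquitin ligase, was at 3562 CPM in control and 3376 CPM in WMI members, 70.8 and 78.8 times its level elsewhere. In premyelinating barcodes Rnf220 was at 294 and 107 CPM. Tnni1, a troponin subunit, was at 302 and 283 CPM, 124 and 209 times its level elsewhere. Prima1, which anchors acetylcholinesterase in membranes, was 87.2 and 143 times higher, and Casr, the calcium-sensing receptor, 93.9 and 70.2 times. In premyelinating barcodes Prima1 was at 55.0 and 8.82 CPM, against 248 and 222 CPM in members. The other genes were Gm32633, Mcam, Nipal4, Insc, Depdc1b and Gm38642, the last of which lies over Mobp on the same strand, so their reads may be split between them. Most of these genes stood at like levels in both libraries, with log2 ratios of WMI to control from -0.41 for Gm38642 to 0.77 for Casr.

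Promoter windows are shown because Myrf, the factor that switches on myelin genes in these cells and was itself at 153 and 147 CPM, binds a known short motif. The motif searched was CTGGCAC, or GTGCCAG on the other strand, in RefSeq windows (GRCm38.p6) from 250 bases before to 50 bases after each start site. It lay in 3 of the 8 rule genes (37.5%) and in 1 of the 9 leading genes that had a window (11.1%), against 1350 of 27025 windows overall (4.995%). A match is a string of letters and does not show binding. The windows that held one were Mag on the minus strand at chr7:30914814-30915113, Sec14l5 on the plus strand at chr16:5146859-5147158, Opalin on the minus strand at chr19:41077064-41077363 and Nipal4 on the minus strand at chr11:46166310-46166609, with the motif in capitals.
Mag: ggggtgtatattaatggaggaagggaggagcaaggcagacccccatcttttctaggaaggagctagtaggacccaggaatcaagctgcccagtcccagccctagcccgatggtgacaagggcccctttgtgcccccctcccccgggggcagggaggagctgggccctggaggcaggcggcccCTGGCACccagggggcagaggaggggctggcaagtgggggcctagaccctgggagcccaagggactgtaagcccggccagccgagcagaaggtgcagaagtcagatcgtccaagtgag
Sec14l5: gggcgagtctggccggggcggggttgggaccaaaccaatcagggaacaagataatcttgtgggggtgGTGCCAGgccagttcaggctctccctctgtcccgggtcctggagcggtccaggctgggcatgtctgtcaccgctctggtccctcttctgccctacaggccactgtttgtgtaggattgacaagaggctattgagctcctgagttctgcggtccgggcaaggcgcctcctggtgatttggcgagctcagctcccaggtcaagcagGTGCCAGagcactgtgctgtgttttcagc
Opalin: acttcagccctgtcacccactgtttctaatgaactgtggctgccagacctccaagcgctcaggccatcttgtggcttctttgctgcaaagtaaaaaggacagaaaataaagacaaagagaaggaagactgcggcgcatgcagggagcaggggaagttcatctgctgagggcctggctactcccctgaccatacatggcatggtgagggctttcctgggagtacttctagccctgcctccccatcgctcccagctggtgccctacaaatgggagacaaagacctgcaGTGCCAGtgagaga
Nipal4: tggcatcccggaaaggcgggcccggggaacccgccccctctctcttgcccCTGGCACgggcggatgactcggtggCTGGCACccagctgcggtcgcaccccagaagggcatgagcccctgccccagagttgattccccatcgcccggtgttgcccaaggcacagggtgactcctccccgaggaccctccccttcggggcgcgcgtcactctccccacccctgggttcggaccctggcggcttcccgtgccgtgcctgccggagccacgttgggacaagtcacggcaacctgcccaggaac
The match began 68 bases before the start site of Mag, a glycoprotein that faces the axon. In Sec14l5, a lipid transfer protein of the Sec14 family, 1 of the 2 matches began 183 bases before the start and the other 21 bases after it. The Opalin match began 36 bases after the start. The 2 matches of Nipal4, a magnesium transporter, began 200 and 175 bases before it.

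Members made up a smaller share of the WMI library. They were 0.943% (95% interval 0.759 to 1.16, exact Clopper-Pearson) of passing control barcodes and 0.666% (0.500 to 0.868) of passing WMI barcodes, a difference of -0.278 percentage points (-0.549 to -0.00448). Within the oligodendrocyte lineage, which joins members with premyelinating and precursor barcodes, they were 16.2% (13.2 to 19.5; 90 of 556) in control and 5.85% (4.43 to 7.56; 54 of 923) in WMI. That difference was -10.3 percentage points (-14.0 to -6.91), and it lay beside a premyelinating share of 18.2% in control and 36.2% in WMI. The bar chart of member shares shows that the intervals of the 2 libraries were apart within the lineage and overlapped over all barcodes. The lineage as a whole took 5.83% of passing control barcodes and 11.4% of passing WMI barcodes, so part of the lower share within it sat beside a larger denominator. The interval of the difference over all barcodes reached past 0 with a minimum of 2000 UMIs (-0.583 to 0.00908), with no UMI of Slc17a7, Gad1 or Gad2 allowed, with Xist-positive barcodes left out and with at most 1% mitochondrial UMIs, and the lineage difference kept its direction in all of these. Striatal projection neuron genes (at least 5 of 10) were found in 13 control barcodes and 56 WMI barcodes, and the part of this difference between the libraries in the member shares was not tested.

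**Figure D1:**
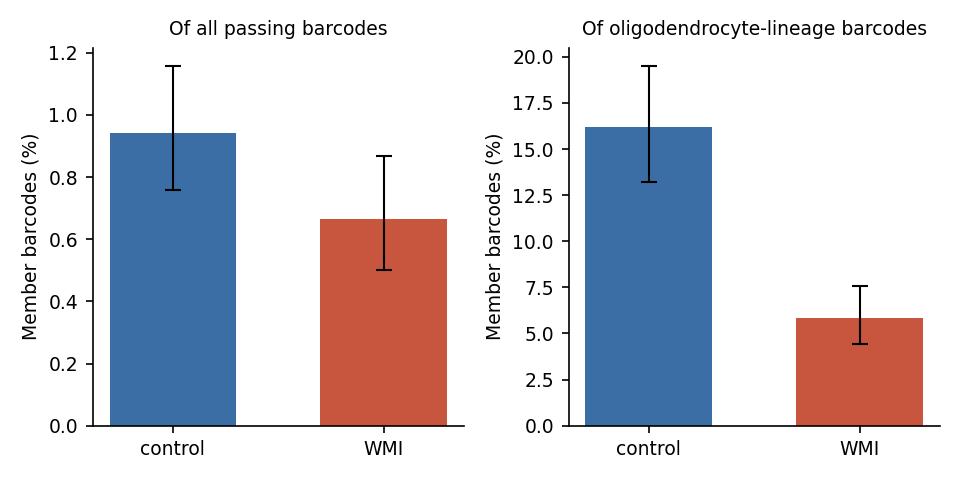
Bars give the percent of barcodes that met the member rule, of all passing barcodes on the left and of oligodendrocyte-lineage barcodes on the right, for the control and the WMI library (1 each). Whiskers are 95% exact binomial intervals for counting error; within the lineage the bars stand at 16.2% and 5.85%.

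The members of the 2 libraries also differed in how many rule genes they showed. In control, 10, 10, 16, 22 and 32 members had 4, 5, 6, 7 and 8 rule genes with a UMI. In WMI these were 15, 11, 9, 11 and 8 members. All 8 were thus most common in control and 4 most common in WMI, and the share with 6 or more was 77.8% (67.8 to 85.9) in control and 51.9% (37.8 to 65.7) in WMI. Depth was close, with medians of 7939 and 7974.5 UMIs per member (1500 to 21793 and 1977 to 23284). Just outside the rule, 50 control and 18 WMI barcodes had 3 of the 8 genes, with 2.22 and 3.00 Mobp UMIs per barcode, against 12.1 and 7.00 at 4 genes. A further 21 control and 11 WMI barcodes had 4 or more rule genes but too many neuronal UMIs, with medians of 8825 and 17171 UMIs. Since these counts come from the rule itself, they describe the members and support no comparison.

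**Figure D2:**
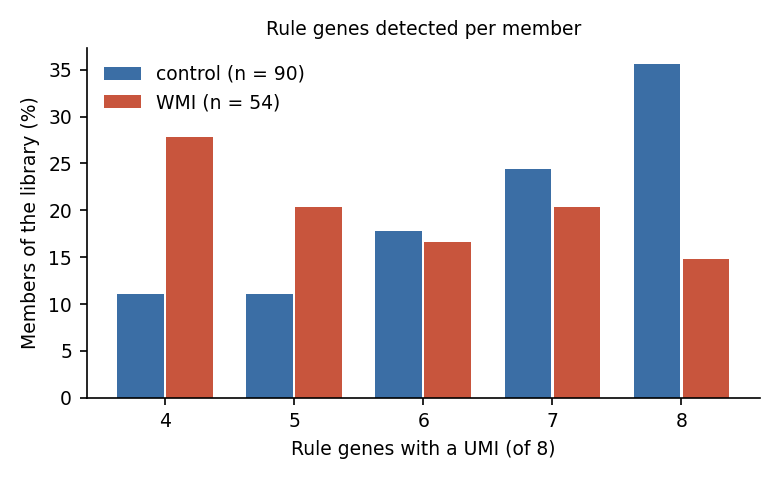
The percent of members (y axis) with 4 to 8 of the 8 rule genes detected (x axis) in control (n = 90) and WMI (n = 54). Control members pile up at 8 genes, and WMI members are highest at 4.

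The rule genes code for parts of myelin and its upkeep, and their summed level was 8106 CPM in control and 7340 CPM in WMI members. Mog, on the outermost myelin surface, was at 1102 and 904 CPM. Mobp, a cytoplasmic protein of compact myelin, was at 3597 and 3076 CPM, and Mag at 1347 and 1784 CPM. Aspa, which frees acetate from N-acetylaspartate for lipid synthesis, gave 223 UMIs in control and 57 in WMI members (299 and 120 CPM). Mal, a raft proteolipid, gave 135 and 57 UMIs, Sec14l5 456 and 167, Opalin, a glycoprotein of myelin loops, 201 and 98, and the claudin gene Cldn14 524 and 373. Detection of these 8 genes made a barcode a member, so their levels describe the choice and nothing is read from how the libraries differ in them.

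Across the 3760 genes with at least 50 UMIs over all members, the median log2 ratio of WMI to control was -0.04. A ratio of 2-fold or more was seen for 76 genes on the higher side (2.02%) and 107 on the lower side (2.85%), 183 in all (4.87%). With the mean of per-barcode CPM in place of summed UMIs, the split was 93 higher and 86 lower. These are counts past a size, not genes called by a test. The rule genes are among those counted. The scatter of ratio against level shows the spread of the ratios around named genes.

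**Figure D3:**
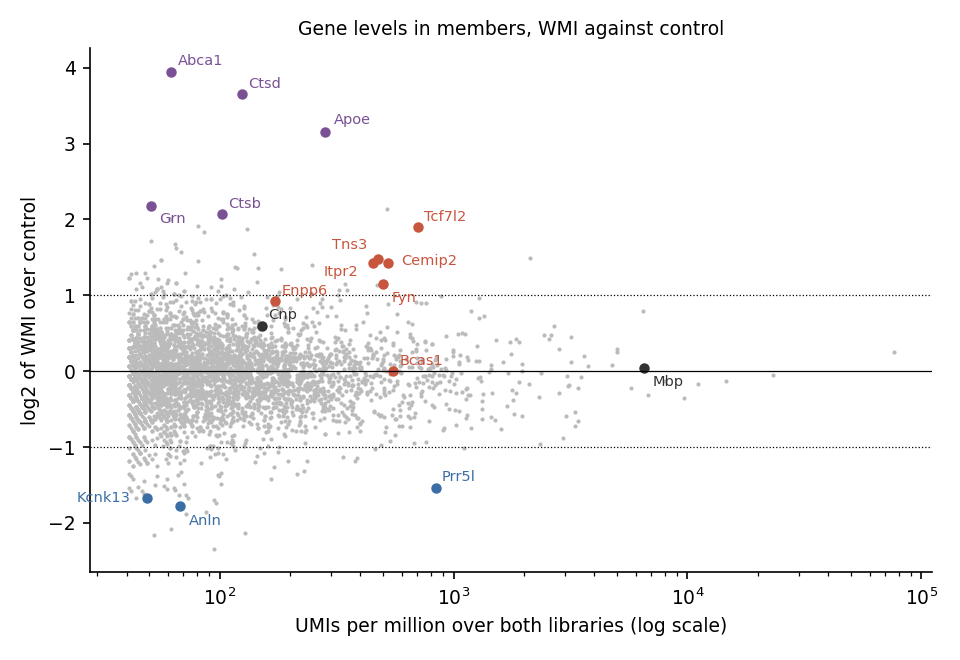
Each point is 1 gene in members, with its level over both libraries in CPM on a log axis and its log2 ratio of WMI to control on the y axis; dotted lines mark 2-fold. Premyelinating-stage genes (red) lie mostly above 0, Prr5l, Anln and Kcnk13 (blue) below -1, and Mbp (black) near 0.

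Myelin protein genes outside the rule went both ways. Of the 12 with enough UMIs, 7 had a log2 ratio above 0 and 5 below, none passed 2-fold, and the median was 0.13. Mbp was at 6446 CPM in control and 6663 CPM in WMI members (log2 0.05, interval -0.02 to 0.11). Cldn11, the claudin of the myelin tight junction, was at 435 and 652 CPM (0.58, 0.35 to 0.81). Pllp, plasmolipin, was at 83.0 and 153 CPM (0.88, 0.37 to 1.40). Gpm6b, a membrane proteolipid, was at 609 and 367 CPM (-0.73, -0.99 to -0.48). Genes for galactolipids and long fatty acids had none of 13 past 2-fold and a median of 0.08. Ugt8a, which makes galactosylceramide, was at 669 and 885 CPM (0.40, 0.21 to 0.59), and Scd2, a desaturase, at 142 and 250 (0.81, 0.42 to 1.21). For cholesterol synthesis the sum over the list was 1556 and 1564 CPM (0.01, -0.13 to 0.14), again with none of 13 genes past 2-fold.

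Lineage transcription factors had 1 of 12 genes past 2-fold, against 4.87% of all genes tested. Tcf7l2, a Wnt pathway factor transient in new oligodendrocytes, gave 254 UMIs in control members and 605 in WMI members, which was 340 and 1268 CPM (1.90, 1.69 to 2.12). Its level in premyelinating barcodes was 1867 and 1398 CPM, so within that class the order was the other way round. Sox10 (0.09, -0.27 to 0.45), Myrf (-0.06, -0.51 to 0.39) and St18 (0.07, -0.02 to 0.15) had ratios near 0. After thinning every barcode to 1000 UMIs, Tcf7l2 had a UMI in 15 of 90 control members (16.7%) and 19 of 54 WMI members (35.2%), 51.1% and 70.4% unthinned. The same thinned share in excitatory neurons, which serve as the background, was 3.2% and 5.4%; those barcodes had 8373.5 and 9171 UMIs in the median.

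Premyelinating-stage genes were higher in WMI members as a list. All 11 with enough UMIs had a log2 ratio above 0, 4 were past 2-fold, their median was 0.96, and the summed level was 4718 CPM in control and 7965 CPM in WMI members (0.76, 0.69 to 0.82). Over all genes tested, 46.8% had a ratio above 0 and 2.02% were 2-fold or more higher. Tns3, a focal adhesion protein, was at 281 and 780 CPM (1.47, 1.22 to 1.72). Itpr2, a calcium release channel, was at 274 and 736 CPM (1.42, 1.17 to 1.68). Fyn, a kinase that couples axon contact to Mbp translation, was at 337 and 751 CPM (1.15, 0.92 to 1.39). Cemip2, a hyaluronidase, was at 317 and 851 CPM, but 1 control barcode held 123 of its 237 control UMIs. Enpp6, a choline phosphodiesterase, was at 129 and 243 CPM (0.92, 0.52 to 1.33), and Bcas1 at 552 and 554. In premyelinating barcodes the same list stood at 12748 and 11514 CPM (-0.15, -0.18 to -0.11). It was at 1633 and 1652 CPM in precursor barcodes (0.02, -0.04 to 0.07). In all other barcodes it was at 897 and 1182 CPM (0.40, 0.38 to 0.41), so higher in WMI there too.

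Most WMI UMIs of the list came from members with few rule genes. The number of rule genes is a value that chose the members, so the split by it is a description and supports no comparison. With 4 or 5 rule genes its level was 10471 CPM in 20 control members and 13209 CPM in 26 WMI members, close to the premyelinating class. Those 26 WMI members held 2770 of the 3799 UMIs of the list, and the 20 control members 1410 of 3524. With 6 or 7 it was 4105 and 3780 CPM, and with all 8 it was 2811 (2627 to 3004) and 4049 CPM (3592 to 4549), on 32 and 8 members. Per member, the lower quartile was 24.7 per 10000 UMIs in control and 27.3 in WMI, the median 31.5 and 37.7, and the upper quartile 48.7 and 139. All 3 were higher in WMI, with the widest gap at the upper quartile, as the plot of single members shows.

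**Figure D4:**
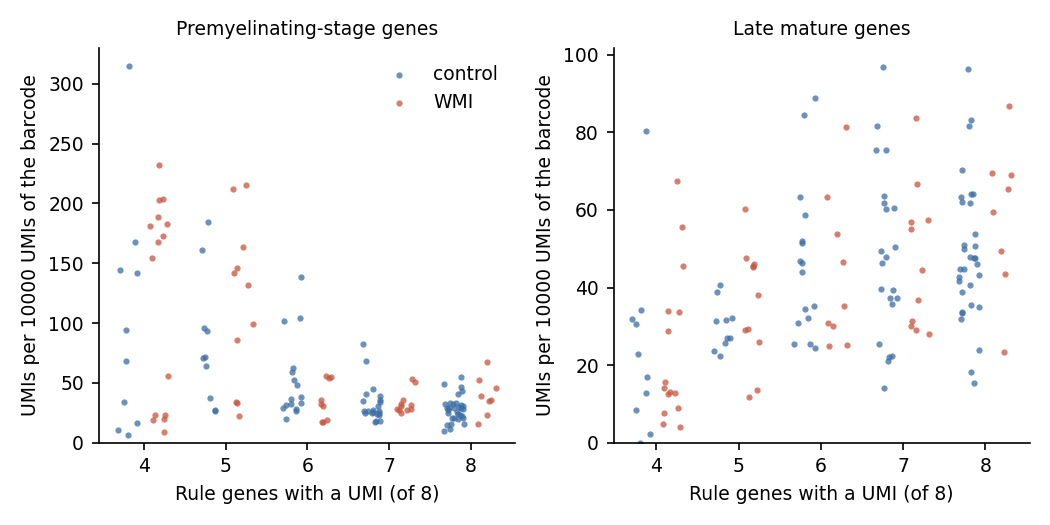
Each point is 1 member, with the number of rule genes detected on the x axis and the summed UMIs of premyelinating-stage genes (left) or late mature genes (right) per 10000 UMIs on the y axis, control in blue and WMI in red. Members above 100 on the left sit at 4, 5 and 6 rule genes.

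Restricted to members with 6 or more rule genes (70 control, 28 WMI), a limit chosen after seeing the data, the ratio of the stage list was smaller. The premyelinating list was then at a log2 ratio of 0.16 (0.05 to 0.27). Tcf7l2 stood at 124 and 157 CPM (0.34, -0.24 to 0.90), Tns3 at 171 and 206 CPM (0.26, -0.24 to 0.75) and Enpp6 at 122 and 105 CPM (-0.23, -0.91 to 0.42). Tnr, a tenascin of the extracellular matrix that was at 222 and 979 CPM over all members (2.14), was at 139 and 266 CPM (0.94, 0.46 to 1.41). The proteoglycan gene Bcan, at 38.8 and 147 CPM over all members, gave 19 and 3 UMIs. Cemip2 was at 1.54 (0.30 to 2.83) on 11 and 14 UMIs, and Gpr17, a receptor of the premyelinating stage, was at 1.28 (0.24 to 2.33) on 17 and 18 UMIs, against 0.96 in all members, and both intervals were wide at these counts. Mbp was at 0.12 (0.04 to 0.20). The scatter of both sets of ratios sets these genes against those that stayed low or high.

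Another group of genes was low in all members and in that restricted set. Since the 70 control members kept held most of their control UMIs, and the limit uses the rule's own genes, the second ratio describes these members and is no independent check. Prr5l, a binding partner of mTORC2 and a gene of late mature oligodendrocytes, gave 840 UMIs in control members and 185 in WMI members (1125 and 388 CPM; -1.54, -1.77 to -1.30), and 831 and 176 with 6 or more rule genes (-1.04, -1.29 to -0.81). After thinning, 40 of 90 control members (44.4%) and 13 of 54 WMI members (24.1%) had a Prr5l UMI, 73.3% and 57.4% unthinned, a thinned difference of -20.4 percentage points (-35.5 to -3.2), against 0.4% and 0.9% in excitatory neurons. Anln, the anillin of the septin scaffold in myelin, gave 70 and 13 UMIs (-1.78) and 70 and 10 in the restricted set (-1.61, -2.73 to -0.65). Kcnk13, a two-pore-domain potassium channel, gave 50 and 10 UMIs (-1.67) and 49 and 5 (-2.10, -3.78 to -0.78). The noncoding gene 4930420G21Rik, 121 times higher in control members than elsewhere, gave 103 and 13 UMIs (-2.34) and 103 and 11 (-2.03, -3.08 to -1.13). Tmem117, a membrane protein, gave 137 and 20 UMIs (-2.13) and 134 and 15 (-1.96, -2.84 to -1.19). The other 7 of the 10 lowest genes (Kctd3, Pde8a, Glp2r, Flrt2, Rad51b, Gm36975 and Polr3e) lay between -2.16 and -1.67, and all 7 stayed below -1 in the restricted set. Some were also lower in WMI in premyelinating, precursor and other barcodes: Glp2r (-0.95, -0.78, -1.22), Flrt2 (-0.54, -0.39, -0.45) and Gm36975 (-0.89, -0.56, -0.46). Kctd3 and Polr3e were lower there by less, between -0.34 and -0.08. In other barcodes 4930420G21Rik was at -0.98, Pde8a at -0.27, Tmem117 at -0.03, Anln at 0.47 and Rad51b at 2.29. In premyelinating barcodes the Prr5l ratio was 1.37 at 3.23 and 8.36 CPM, and in precursor barcodes 0.70. The premyelinating value rests on very few control UMIs, since that class held 618548 UMIs in all, so nothing is read from it. Some genes were higher in both sets, among them Kcnj10, an inward rectifier that clears potassium (25 and 44 UMIs, 1.46; 1.86 restricted), and Tppp, a tubulin polymerizer (60 and 81 UMIs, 1.08; 1.29 restricted).

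**Figure D5:**
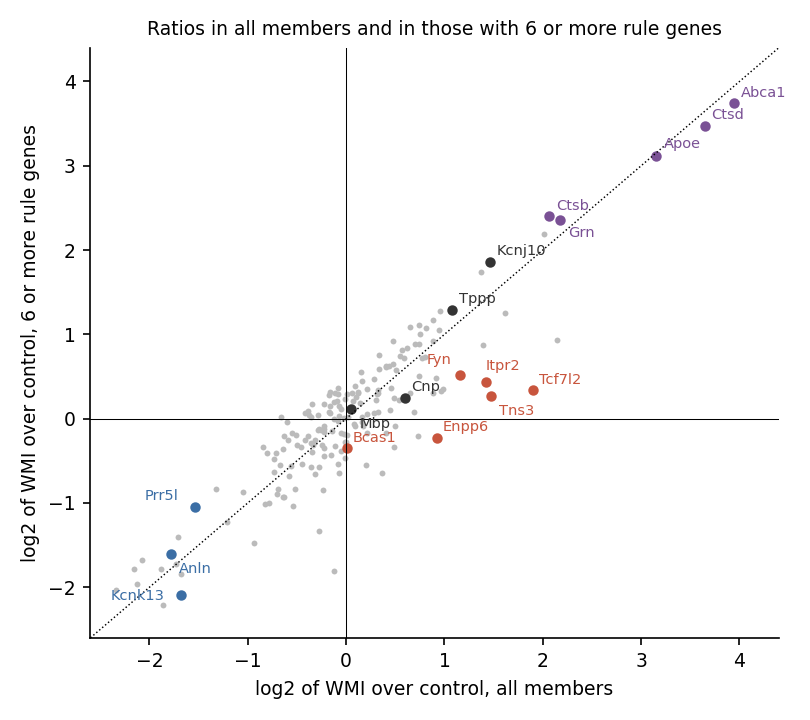
Log2 ratio of WMI to control in all members (x axis) against that in members with 6 or more rule genes (y axis), for named genes with at least 30 UMIs in the latter; the dotted line marks equal values. Tcf7l2, Tns3, Itpr2 and Enpp6 lie far below the line. Anln and Abca1 lie near it, Prr5l lies above it (-1.54 against -1.04) and Kcnk13 below it (-1.67 against -2.10).

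The late mature list, which includes Prr5l, had 1 of 8 genes past 2-fold on the lower side, against 2.85% of all genes tested. None was past it on the higher side, and the list had a median of -0.08. Its sum was 4367 CPM in control and 3812 CPM in WMI members (-0.20, -0.28 to -0.11). Without Prr5l, left out after seeing the data, the sum was 3242 and 3424 CPM (0.08, -0.01 to 0.17), so the lower sum rested on that gene. The sum of the whole list was also at 0.0084 with no neuronal UMI allowed and at -0.046 (-0.14 to 0.05) with 6 or more rule genes. Enpp2, autotaxin, was at 1427 and 1417 CPM. Trf, transferrin, gave 46 UMIs in each library, on totals of 746988 UMIs in control and 476943 in WMI members. Its log2 ratio was thus 0.65, and 1.09 (0.41 to 1.76) with 6 or more rule genes on 41 and 38 UMIs. Klk6, Hopx, Il33 and Serpinb1a were at 0 in control and at 1 UMI each in WMI. Genes of newly myelinating cells summed to 6221 and 7785 CPM (0.32, 0.26 to 0.39), a ratio of 0.039 (-0.05 to 0.13) with 6 or more rule genes. The same sum was at -0.44 in premyelinating, 0.05 in precursor and 0.33 in other barcodes. In members, Fam107b was past 2-fold at 151 and 398 CPM (1.40, 1.05 to 1.75). Genes of the axon junction and cytoskeleton summed to 14102 and 14222 CPM, with 1 of 17 higher (Tppp) and 1 lower (Anln). Over all genes tested, 2.02% were 2-fold or more higher and 2.85% lower. Nfasc, which holds paranodal loops to the axon, was at 2779 and 3805 CPM (0.45, 0.36 to 0.54), and Dock10 at 3495 and 2323 CPM (-0.59, -0.69 to -0.49).

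Receptors had 1 of 10 genes past 2-fold, against 4.87% of all genes tested. Lingo1, an inhibitor of myelination, gave 58 and 16 UMIs (-1.21, -2.11 to -0.39), and Erbb4 was at 6079 and 5193 CPM. Endothelin genes, the subject of the study, were near absent, with 28 UMIs over the 7 genes in control members and 27 in WMI members. Edn1, Edn2 and Edn3 had none, Ednrb gave 9 and 8 UMIs (12.05 and 16.8 CPM, against 54.1 and 69.0 in precursor barcodes), and the converting enzyme Ece1 16 and 17. At these counts a difference in Ednrb was not detectable. Genes known from injured oligodendrocytes summed to 134 and 185 CPM over 18 genes (0.46, 0.03 to 0.89), on 100 and 88 UMIs, and the same sum was at 0.71 in premyelinating, 0.41 in precursor and 0.59 in other barcodes, with Serpina3n at 0 and 1 and C4b at 1 and 2. Immediate-early genes summed to 61.6 and 56.6 CPM on 46 and 27 UMIs (-0.12, -0.86 to 0.60). Stress genes summed to 343 and 432 CPM (0.33, 0.06 to 0.60), and the same sum was at 0.32 in premyelinating, 0.25 in precursor and 0.35 in other barcodes. Calr and Hsp90b1 gave the most UMIs of them in control, at 60 each, and Hsp90b1 in WMI members. Cell death genes summed to 374 and 361 CPM. Hypoxia response genes summed to 185 and 210 CPM (0.18, -0.20 to 0.56), with Hif1a alone above 50 UMIs in all. Precursor-stage genes summed to 1119 and 1036 CPM (-0.11, -0.28 to 0.05), and genes of axon support and metabolism to 2631 and 2690 CPM (0.03, -0.07 to 0.13).

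The 10 highest genes in members were all higher in WMI in the class of other barcodes too, but not in every class of the lineage. Tnr, Bcan, Tcf7l2 and Zfhx3 had ratios from -0.42 to 0.02 in premyelinating barcodes, from -0.36 (Tnr) to 1.13 (Zfhx3) in precursor barcodes, and from 0.31 (Bcan) to 1.05 (Zfhx3) in other barcodes. Abca1, a cholesterol exporter, gave 7 UMIs in control and 69 in WMI members (3.95, 2.83 to 5.32), with log2 ratios of 1.46 in premyelinating, 1.91 in precursor and 2.98 in all other barcodes. Apoe, a lipid carrier of astrocytes and myeloid cells, gave 52 and 295 UMIs (3.15), with 3.40, 2.94 and 3.42 in those classes. The lysosomal genes Ctsd (3.65), Grn (2.17) and Ctsb (2.07) were also higher in the WMI library in all of these classes. Activated myeloid genes as a list gave 82 and 392 UMIs in members (2.90), with Apoe the most abundant and Spp1, Gpnmb, Lgals3, Plin2 and Mrc1 at 0 in control. Microglia genes gave 97 and 227 UMIs (1.87), with Tmem119 at 0 in WMI. Both lists were higher in every class of the WMI library, and the part of free RNA in these values was not tested. Excitatory genes were at 2094 and 1346 CPM in members (-0.64, -0.77 to -0.50), led by Syt1 at 899 and 352 UMIs. The list also holds Slc17a7 (63 and 40 UMIs), which the rule limited, so the rule bears on this level. The list had ratios of -0.31 in premyelinating, -0.17 in precursor and -0.22 in other barcodes. Astrocyte genes were at 452 and 434 CPM.

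The libraries differed in sex make-up as well. Xist, the noncoding RNA of the inactive X chromosome, had no UMI in 90 control members and 407 UMIs in 35 of 54 WMI members (64.8%, 50.6 to 77.3), at least 212-fold higher when control is set at 3 counts over the group. Y-linked genes had a UMI in 81 control and 41 WMI members, and 24 WMI members held both. In all other WMI barcodes 64.2% had a Xist UMI. Over all members, sex make-up and injury differed together between the libraries, and the part of sex in the other differences was not tested. With Xist-positive members left out, 90 control and 19 WMI members remained and the premyelinating list was at 0.97. With Xist-positive barcodes left out, the difference in share of the lineage was -10.2 percentage points (-14.3 to -5.85). Mitochondrial transcripts summed to 2878 CPM in control and 4290 CPM in WMI members (0.58, 0.49 to 0.66), and with Xist-positive members left out the ratio was 0.054 (-0.09 to 0.19). The same sum had log2 ratios of 2.41 in premyelinating, 2.52 in precursor and 2.11 in other barcodes, so of these classes members differed least between libraries. Predicted doublets were 3 of 90 control and 5 of 54 WMI members. No barcode sequence was shared between members of the 2 libraries.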

How the data were processed

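Both libraries were 10x Genomics single-cell RNA libraries. The deposited values are raw UMI counts for each gene in each barcode; per the file headers, Cell Ranger 6.1.1 wrote them, and no normalization was applied. The submitters' processing notes name Seurat and the build mm9, while the 55450 listed genes all carry identifiers and symbols found in release M21 of GENCODE (GRCm38). The control file held 10288 barcodes and 66470806 UMIs, and the WMI file 8354 barcodes and 60568639 UMIs. After filtering, 9540 and 8113 barcodes remained, with medians of 4727.5 and 5267 UMIs. The study describes several replicates per group and a smaller number of cells. 1 library per group was analysed here, and the study's cell filter was not applied. Across the files, 36 barcode sequences were shared.

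CPM is the summed UMIs of a class over its total UMIs. Intervals (95%) were exact binomial for shares, the combined limits of both shares for a difference, and conditional binomial for log2 ratios. With 1 library per group no p-value was computed. On simulated counts for WMI over control members (3760 genes, 200 with known changes), 197 changed genes passed 2-fold in the right direction. Of 3560 unchanged genes, 14 passed 2-fold, and 96.2% of intervals held the true value. The counts were drawn from a Poisson model, the counting error that the intervals assume, with no spread between cells or mice. The simulation therefore checks the calculation only and does not show how the intervals behave on real members. Named genes were those of the gene lists with at least 50 UMIs in members, the 10 highest and 10 lowest ratios, and the 10 leading genes outside the rule with at least 100 UMIs. Members and lists were chosen with earlier results of these data known. Doublets were predicted with Scrublet in scanpy 1.11.5 at 0.8% per 1000 barcodes, since its automatic threshold marked 298 control barcodes and 1 WMI barcode. Predicted doublets were kept in the main values. Calculations used Python 3.11.15, numpy 2.4.6 and scipy 1.17.1. Promoter windows came from RefSeq. Some genes are not reported here.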

Additional observations from a re-analysis of the deposited data

How the results depend on the processing

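Counts of genes past 2-fold (76 higher, 107 lower) depended on the filter: 304 and 387 with at least 20 UMIs, 34 and 37 with at least 100, and 4324 and 1303 with none. With at least 3 rule genes they were 126 and 244. With no neuronal UMI allowed they were 65 and 40, which turned the split toward higher genes. The lower count was 201 without Xist-positive barcodes, and the higher count was 44 with at least 6 rule genes. Median-of-ratios scaling gave 88 and 92, and the mean of per-barcode CPM 93 and 86, which also turned the split. The difference in share of passing barcodes was -0.580 points with at least 3 rule genes. It shrank to -0.135 with at most 1% mitochondrial UMIs and to -0.106 with no neuronal UMI allowed. The lineage difference was -15.75 with at least 3 and -25.9 with thinning before the rule. Both shares stayed lower in WMI under every alternative run.

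The premyelinating list was at a log2 ratio of 0.97 with at least 3 rule genes, 0.67 with at least 5, 0.98 with no neuronal UMI, 0.97 without Xist-positive barcodes and 0.16 with at least 6. The late mature list reversed to 0.00839 with no neuronal UMI and to 0.079 without Prr5l (added after seeing the data), and was -0.085 with at least 5 rule genes, -0.31 without Xist-positive barcodes and -0.046 with at least 6. The newly myelinating list was at 0.51, 0.40, 0.52 and 0.039 (-0.05 to 0.13) with at least 3, no neuronal UMI, without Xist-positive barcodes and with at least 6. The other myelin proteins were at 0.35, 0.18, 0.20 and 0.23 with at least 3, at least 5, no neuronal UMI and at least 6. Mitochondrial genes were at 0.91 with at least 3, 0.054 without Xist-positive barcodes and 0.75 with at least 6. The cause of these shifts was not tested, beyond the barcodes each setting adds or removes. The limit of 6 was chosen after seeing the data. Of 2295 values for 190 named genes, 2048 stayed within the main counting interval and 247 left it. The settings that changed only the UMI filter left every ratio as it was, so their values (190, 142 and 190) could not move. Median-of-ratios scaling and totals without mitochondrial and ribosomal genes shifted all ratios by 1 constant each. The tally therefore overstates how stable the ratios were. Of the 189 named genes with both ratios, 38 changed sign with at least 6 rule genes, of which 1 (Bcan) was past 2-fold in all members. Of 39 genes past 2-fold on the higher side that had enough UMIs with at least 6 rule genes, 20 stayed past it and 2 changed sign, and of 74 on the lower side 44 stayed past it.

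No paired analysis was possible because each group was 1 library. Leaving out a replicate was not possible for the same reason. With 54 WMI members, genes under about 50 UMIs had wide intervals.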
